A study of Mus musculus with 10 samples.

Results

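The 10 genes described here carry out antigen presentation by MHC class I, and their transcripts were measured in the livers of 10 mice that received a guide RNA against Bap1 or a control guide, with or without a dose of carbon tetrachloride (CCl4). They were taken by symbol: the classical heavy chains H2-K1 and H2-D1, the light chain B2m, the peptide transporter subunits Tap1 and Tap2, the loading factor Tapbp, the inducible proteasome subunits Psmb8, Psmb9 and Psmb10, and the regulator Nlrc5. All 10 were found among the 55291 genes of the count table, and all 10 passed the filter on low counts that left 17015 genes for testing. The set and the lists used below were chosen with earlier results of these data known. Shares of members set beside those of all genes are therefore a description.

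Class I molecules display fragments of a cell's own proteins at its surface, where CD8 T cells read them and natural killer cells sense their loss. Proteasomes cut cytosolic proteins into peptides, the TAP transporter pumps these into the endoplasmic reticulum, and tapasin holds an empty class I molecule beside TAP until a peptide fits. Interferon gamma is known to raise the whole pathway, and Nlrc5 is recruited to class I promoters by proteins that bind there. In liver, nearly every cell type carries class I, and resting hepatocytes are known for low surface amounts.

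The mice were females of 16 to 20 weeks that carried the Cas9 Lox-Stop-Lox allele, in which a stop cassette keeps Cas9 silent until Cre removes it. Every mouse received an AAV8 virus that brings a guide RNA and a Cre gene under the hepatocyte promoter TBG, so the controls also expressed Cre and Cas9. The guide was non-targeting (NTC) or aimed at Bap1 (sgBap1), a deubiquitinase that removes ubiquitin from histone H2A. After 10 days the mice were given olive oil (Veh) or CCl4, 1 part in 9 parts of olive oil, at 10 µL per g of body weight into the peritoneum. Livers were taken 48 hours later. Each guide was studied in 2 mice given vehicle and in 3 given CCl4, and groups are named by guide and treatment (NTC-Veh, for example). The allele is switched on in hepatocytes that take up the virus, other liver cells keep Bap1, and the RNA came from whole tissue. A lower level in such bulk RNA can stand for fewer cells of a type or for less RNA per cell, and these cannot be told apart. The sources used here do not name the H2 haplotype of the mice, on which the match of class I reads to the reference depends.

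Libraries held 3.30e+07 to 5.22e+07 estimated counts, and a member had between 795 and 70686 counts in a liver. Levels are CPM, the count of a gene scaled to a common library size after TMM normalization. Unless another test is named, each p is two-sided and was obtained by the quasi-likelihood test of edgeR in a model of all 10 livers, adjusted by Benjamini-Hochberg over the 17015 genes. A gene is called changed at an adjusted p under 0.05. A standard error (SE) follows each log2 fold change. Bap1 itself measured 34.8 and 34.8 CPM in the NTC-Veh livers and 17.5 and 19.5 CPM in the sgBap1-Veh livers. This was a difference of -0.91 ± 0.12 on the log2 scale (adjusted p = 0.0208). With CCl4 it measured 29.5 to 31.5 CPM in NTC and 16.99 to 21.8 CPM in sgBap1 livers (log2 fold change -0.65 ± 0.10, adjusted p = 0.0295). The sgBap1 livers thus kept 0.532 times the control level of Bap1 RNA with vehicle and 0.636 times with CCl4, so Bap1 was reduced and not absent in the tissue. Markers of hepatocytes were high in all 10 livers, with Alb at a mean of 61900 to 105000 CPM per group. The 2nd sgBap1-CCl4 liver stood apart through fat cell genes, with 36.4 CPM of Adipoq and 34.5 CPM of Plin1 against at most 3 counts of either in each other liver. Results that this liver decides are given without it.

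Of the members, 7 lie on chromosome 17 in the mouse MHC region, within 1351.6 kb. Positions follow the GENCODE vM21 annotation of GRCm38. Psmb9 (34181987 to 34187764, - strand), Tap1 (34187553 to 34197225, + strand), Psmb8 (34197721 to 34201454, + strand) and Tap2 (34203527 to 34216321, + strand) sit side by side within 34.3 kb. Tapbp (33915899 to 33929292, + strand), H2-K1 (33996017 to 34000347, - strand) and H2-D1 (35262730 to 35267499, + strand) lie on either side of them. B2m is on chromosome 2 (122147686 to 122153083, + strand), and Nlrc5 (94434356 to 94527272, + strand) and Psmb10 (105935735 to 105938444, - strand) are on chromosome 8. The models of Psmb9 and Tap1 overlap head to head by 212 bases on opposite strands. Class I heavy chains are near copies of each other: 9.63% of the 50-base stretches of H2-K1 transcripts and 12.8% of those of H2-D1 also occur in another gene, most often H2-Q10 and H2-Q1. Reads from such stretches are split between the genes by estimation, so the levels of both heavy chains carry that uncertainty. For the other 8 members the shared part was 0% to 2.87%. The set was chosen by symbol, so these positions were not part of the choice.

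The promoters below were searched for 4 short motifs, and no motif was found in all of them. Each promoter runs from 250 bases before to 50 bases after a RefSeq start site on GRCm38.p6, read 5′ to 3′ on the strand of the gene. Capitals mark the class I kB core (GGGATTCCC), the X2 box core (TGACGC), the interferon-stimulated response element ISRE (GAAANNGAAA) and the gamma-activated site GAS (TTCNNNGAA), searched on both strands. The windows are chr17:34000298-34000597 (- strand) for H2-K1, chr17:35262844-35263143 (+ strand) for H2-D1, chr2:122147437-122147736 (+ strand) for B2m, chr17:34197945-34198244 (+ strand) for Psmb8 and chr17:34187281-34187580 (- strand) for Psmb9.
H2-K1: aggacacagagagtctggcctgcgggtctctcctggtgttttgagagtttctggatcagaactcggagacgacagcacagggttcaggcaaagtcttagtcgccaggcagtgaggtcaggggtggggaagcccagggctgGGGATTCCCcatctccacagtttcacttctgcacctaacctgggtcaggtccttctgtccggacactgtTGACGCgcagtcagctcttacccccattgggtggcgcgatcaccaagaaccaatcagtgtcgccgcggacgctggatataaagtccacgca
H2-D1: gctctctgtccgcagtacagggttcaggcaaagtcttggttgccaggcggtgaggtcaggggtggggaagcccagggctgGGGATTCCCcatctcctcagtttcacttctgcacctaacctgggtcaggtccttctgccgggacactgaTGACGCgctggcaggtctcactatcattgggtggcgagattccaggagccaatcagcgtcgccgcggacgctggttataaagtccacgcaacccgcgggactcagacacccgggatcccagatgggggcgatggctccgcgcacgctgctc
B2m: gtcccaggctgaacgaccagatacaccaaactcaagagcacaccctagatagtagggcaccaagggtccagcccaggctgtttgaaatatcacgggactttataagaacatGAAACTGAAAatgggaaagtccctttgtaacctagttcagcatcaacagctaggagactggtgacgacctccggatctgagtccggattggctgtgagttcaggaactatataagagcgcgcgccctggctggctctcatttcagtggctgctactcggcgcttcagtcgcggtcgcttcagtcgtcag
Psmb8: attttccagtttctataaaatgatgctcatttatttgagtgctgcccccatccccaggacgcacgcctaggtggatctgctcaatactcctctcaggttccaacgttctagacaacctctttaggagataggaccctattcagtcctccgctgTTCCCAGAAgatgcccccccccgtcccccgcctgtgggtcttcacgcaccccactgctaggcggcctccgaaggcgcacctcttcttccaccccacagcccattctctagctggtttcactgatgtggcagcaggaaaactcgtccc
Psmb9: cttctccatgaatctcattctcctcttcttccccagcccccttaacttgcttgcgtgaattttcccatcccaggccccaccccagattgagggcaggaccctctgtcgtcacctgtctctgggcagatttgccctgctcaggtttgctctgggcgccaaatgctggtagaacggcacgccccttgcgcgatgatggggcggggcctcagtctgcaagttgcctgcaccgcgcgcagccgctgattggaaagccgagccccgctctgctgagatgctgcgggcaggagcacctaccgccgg
Both heavy chain promoters held the kB core and, 69 bases further on, the X2 box. The start site of H2-K1 differs between RefSeq transcripts, and in the window shown the kB core lies at -110 to -102 and the X2 box at -41 to -36, against -170 to -162 and -101 to -96 in H2-D1. B2m held 1 ISRE, at -139 to -130, and Psmb8 held 1 GAS, at -97 to -89. None of the 4 motifs was found in the windows of Psmb9, Tap1, Tapbp or Psmb10. The windows of Tap1 and Psmb9 share 275 bases, since the genes start back to back. Among 32851 promoter windows of the table, 0.353% held the kB core, 7.4% the X2 box, 3.44% the ISRE and 8.3% the GAS. RefSeq windows matched 8 members, and Tap2 and Nlrc5 had none. A match describes letters and does not show that a protein binds there. Only exact matches were marked, so a site with even 1 other base was missed. A window without a match may therefore still hold a related site.

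Compared per kb of the longest principal coding transcript in NTC-Veh livers, B2m stood highest at 1655 ± 167 CPM per kb (SD, n = 2), followed by H2-K1 (902 ± 6.84) and H2-D1 (281 ± 3.24). Tapbp came next at 52.7 ± 2.11 CPM per kb. The inducible proteasome subunits followed, with Psmb10 at 32.1 ± 0.0452, Psmb8 at 25.0 ± 0.0261 and Psmb9 at 17.3 ± 1.38 CPM per kb. Tap1 (14.1 ± 0.554 CPM per kb), Tap2 (11.6 ± 0.179) and Nlrc5 (5.55 ± 0.859) closed the order, and no neighbours in it overlapped between livers. The first 4 places and the last were the same in all 4 groups. In sgBap1-Veh livers the neighbours Psmb8 and Psmb9 overlapped, and in NTC-CCl4 livers Tap1 and Psmb9 did. With the length of all exons in place of that of 1 transcript, Tap2 moved from place 9 to place 7 in every group, and Psmb9 moved from place 7 to 9 in NTC-Veh livers.

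**Figure D1:**
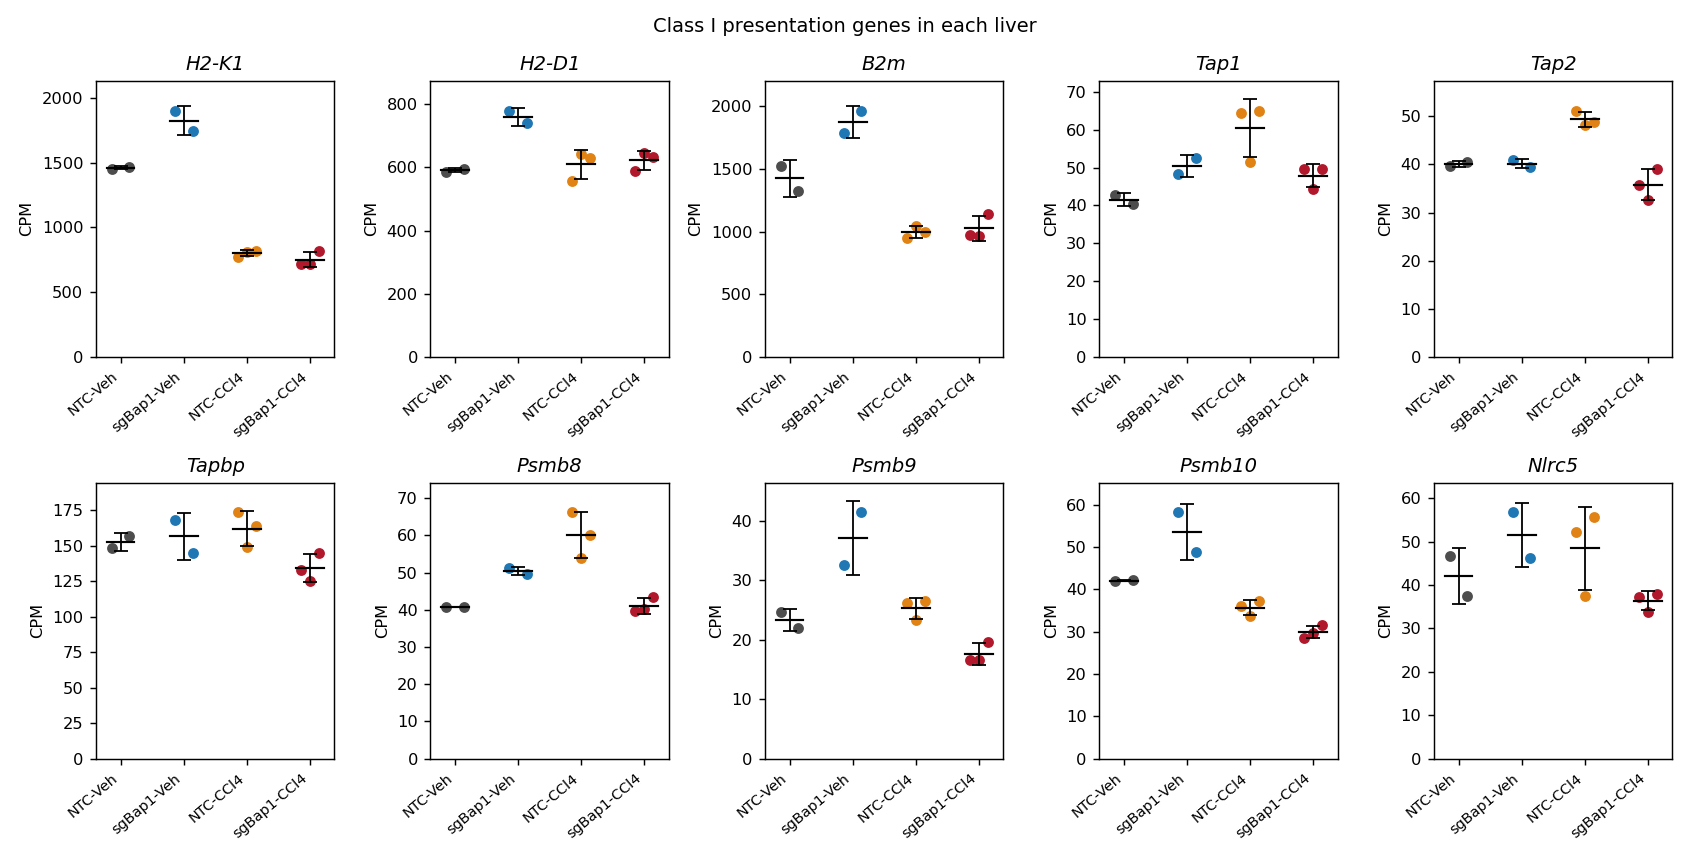
Level of each class I presentation gene in CPM (vertical axis, from 0) in the 4 groups (horizontal axis), with 1 point per liver, the mean as a line and the SD as bars. The sgBap1-Veh points of H2-K1, H2-D1, B2m, Psmb9 and Psmb10 lie above all other livers. The 3 sgBap1-CCl4 points of Tap2, Tapbp, Psmb9 and Psmb10 lie below all others, in Tapbp by little (144.6 against 145.1 CPM).

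The first comparison asked how the pathway differed with the Bap1 guide in uninjured liver. No member was called changed, and all 10 had log2 fold changes above 0, with a median of 0.32 against 0.02 over all 17015 genes. Of all genes tested, 0.276% were called higher and 0.129% lower in sgBap1-Veh against NTC-Veh livers. At an unadjusted p under 0.05 there were 7 members and 2100 genes. DESeq2's Wald test called 4 members higher (H2-K1, H2-D1, B2m and Psmb9), where it called 392 of 14904 genes higher and 156 lower. In 7 members both sgBap1-Veh livers lay above both NTC-Veh livers, and in none below, which held for 21.7% and 19.2% of all genes. With 2 livers against 2, a permutation of the livers cannot give a p below 0.333.

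Psmb9, the inducible subunit of the caspase-like site of the proteasome, had the largest difference. It measured 24.7 and 22.03 CPM in the NTC-Veh livers and 32.6 and 41.4 CPM in the sgBap1-Veh livers, so the groups did not overlap. The log2 fold change was 0.66 ± 0.14 (adjusted p = 0.0766), a 1.58-fold higher level that missed the threshold. Psmb10, the inducible trypsin-like subunit, went from 42.0 and 42.1 CPM to 58.2 and 48.9 CPM (0.35 ± 0.10, adjusted p = 0.18). Psmb8, the inducible chymotrypsin-like subunit, went from 40.7 and 40.8 CPM to 51.3 and 49.7 CPM (0.31 ± 0.10, adjusted p = 0.25). The replicates of Psmb8 lay closer together than the groups.

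The class I molecule itself showed differences of like size. H2-K1 measured 1453 and 1468 CPM in NTC-Veh and 1902 and 1748 CPM in sgBap1-Veh livers (log2 fold change 0.32 ± 0.13, adjusted p = 0.346). H2-D1 measured 586 and 596 CPM against 780.0 and 739.5 CPM (0.36 ± 0.12, adjusted p = 0.244). For B2m, the light chain that every class I heavy chain needs, the values were 1525 and 1322 CPM against 1783 and 1966 CPM (0.40 ± 0.15, adjusted p = 0.295). None of these 3 genes overlapped between the groups, and none passed the threshold.

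The loading machinery was uneven. Tap1 measured 42.7 and 40.4 CPM against 48.4 and 52.4 CPM, with no overlap and a difference of 0.28 ± 0.12 in log2 (adjusted p = 0.396). Its partner Tap2 overlapped, at 39.6 and 40.5 CPM against 40.9 and 39.5 CPM (0.01 ± 0.10, adjusted p = 0.995). Tapbp, which encodes tapasin, also overlapped, with means of 153 ± 6.12 and 157 ± 16.4 CPM (SD, n = 2 each). Nlrc5, the class I transactivator, measured 46.6 and 37.4 CPM against 56.8 and 46.3 CPM, a difference of 0.29 ± 0.18 on the log2 scale (adjusted p = 0.598).

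All listed markers of immune cells had values above 0 in the same livers, as the members did. Of 8 leukocyte markers, all 8 had values above 0 and 1, the common leukocyte antigen Ptprc, was called higher (log2 fold change 1.05 ± 0.18, adjusted p = 0.0419). Their summed level was 142 to 161 CPM in NTC-Veh and 214 to 251 CPM in sgBap1-Veh livers. Of 9 macrophage markers, all 9 had values above 0 and the growth factor receptor Csf1r was called higher (1.06 ± 0.18, adjusted p = 0.0487), with sums of 138 to 207 and 277 to 401 CPM. Both calls were lost with the replicate block (adjusted p = 0.0891 for Ptprc and 0.115 for Csf1r), and of 10 fits without a liver Ptprc kept its call in 3 and Csf1r in 1. All 12 markers of T and NK cells had values above 0 (median 1.09), with none called. They summed to 3.33 to 8.58 and 13.2 to 13.7 CPM. By contrast, 7 of 8 hepatocyte markers had values below 0 and none was called. All 4 B cell, all 5 dendritic cell and 5 of 6 sinusoidal endothelial markers had values above 0, with none called. None of these markers was at 0 counts in any liver, and their part in the members' values was not tested.

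The second comparison asked the same under injury. In sgBap1-CCl4 against NTC-CCl4 livers 2 of 10 members were lower and none higher, against 0.129% and 0.2% of all genes. The median log2 fold change of the members was -0.30, against 0.00 over all genes, and 8 of 10 had values below 0. In 6 members all 3 sgBap1-CCl4 livers lay below all 3 NTC-CCl4 livers, and in none above, which held for 10.2% and 10.1% of all genes.

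Psmb8 measured 66.2, 53.9 and 60.1 CPM in the NTC-CCl4 livers and 39.6, 40.1 and 43.6 CPM in the sgBap1-CCl4 livers. All 3 sgBap1-CCl4 livers were lower than all 3 controls, and the log2 fold change was -0.55 ± 0.08 (adjusted p = 0.0347), 0.684 times the control level. Tap2 measured 51.2, 48.1 and 48.8 CPM against 35.7, 32.6 and 39.0 CPM, also without overlap (-0.46 ± 0.08, adjusted p = 0.0445). Both lost the call in most fits that left out a liver, Psmb8 keeping it in 2 of 10 and Tap2 in 1 of 10, while the log2 fold changes stayed between -0.62 and -0.47 and between -0.54 and -0.40. Without the 2nd sgBap1-CCl4 liver they were -0.53 (adjusted p = 0.0836) and -0.40 (adjusted p = 0.106). Both calls were also lost when only the 6 CCl4 livers were fitted (adjusted p = 0.0949 and 0.101) and with the replicate number as a block (adjusted p = 0.0758 and 0.0944).

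Psmb9 measured 26.1, 23.2 and 26.5 CPM in NTC-CCl4 and 16.6, 16.5 and 19.7 CPM in sgBap1-CCl4 livers. These did not overlap, and the log2 fold change of -0.52 ± 0.11 missed the threshold (adjusted p = 0.0866). Tap1 (60.4 ± 7.63 against 47.8 ± 3.08 CPM, SD, n = 3 each), Tapbp (162 ± 12.5 against 134 ± 9.92 CPM) and Psmb10 (35.7 ± 1.76 against 29.9 ± 1.47 CPM) did not overlap either and had adjusted p of 0.172 to 0.246. Nlrc5 measured 52.3, 37.5 and 55.6 CPM against 37.3, 33.9 and 38.0 CPM. Its groups overlapped through the 2nd NTC-CCl4 liver (log2 fold change -0.41 ± 0.15, adjusted p = 0.265).

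Differences were small for the class I chains. H2-K1 had means of 803 ± 24.8 and 750 ± 59.5 CPM (SD, n = 3 each), H2-D1 of 609 ± 44.7 and 623 ± 30.3 CPM, and B2m of 995 ± 46.5 and 1025 ± 98.2 CPM. All 3 overlapped between the groups, and their log2 fold changes were -0.10 ± 0.11, 0.03 ± 0.10 and 0.04 ± 0.12 (adjusted p = 0.717, 0.928 and 0.917). The leukocyte markers summed to 508 to 608 CPM with the NTC guide and to 510 to 611 CPM with the Bap1 guide. Those of macrophages summed to 490 to 804 and 472 to 645 CPM. Values above 0 were found for 2 of 8 leukocyte and 1 of 9 macrophage markers (medians -0.02 and -0.25). For T and NK cells it was 3 of 12 (median -0.16), for B cells 0 of 4 and for dendritic cells 2 of 5. For sinusoidal endothelium it was 3 of 6 and for hepatocytes 3 of 8. No marker of these lists was called, and their part in the members' values was not tested.

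**Figure D2:**
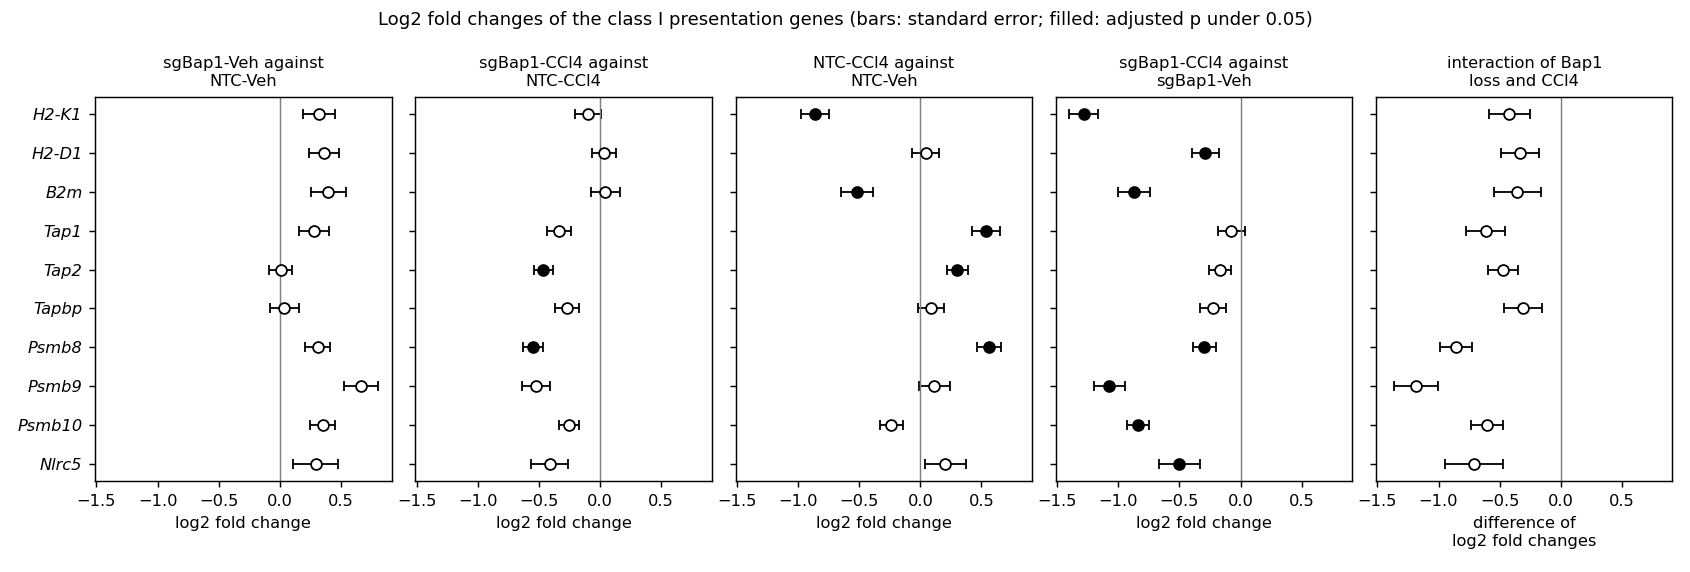
Log2 fold change (horizontal axis) of each member (vertical axis) in the 4 comparisons and the interaction, with bars for the SE and filled points at an adjusted p under 0.05. All 10 points lie right of 0 in the 1st panel and left of 0 in the 4th and 5th, and filled points are 0, 2, 5, 7 and 0 from left to right.

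The third comparison gave the response to CCl4 with the control guide. In NTC-CCl4 against NTC-Veh livers 3 members were higher and 2 lower, where 27.4% of all genes were called higher and 26.6% lower. In 3 members the CCl4 livers all lay above the vehicle livers and in 3 below, against 36.7% and 35% of all genes. The shares of the members were near those of all genes. The median log2 fold change of the members was 0.10, against 0.03 over all genes.

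Psmb8 was higher at 66.2, 53.9 and 60.1 CPM against 40.7 and 40.8 CPM (log2 fold change 0.56 ± 0.10, adjusted p = 0.000708). Tap1 was higher at 64.5, 51.6 and 65.1 CPM against 42.7 and 40.4 CPM (0.54 ± 0.11, adjusted p = 0.0024). Tap2 was higher by less, at 51.2, 48.1 and 48.8 CPM against 39.6 and 40.5 CPM (0.30 ± 0.09, adjusted p = 0.0142), and kept its call in 8 of 10 fits that left out a liver, losing it without either NTC-Veh liver (adjusted p = 0.0758 and 0.0549). None of these 3 genes overlapped between the groups.

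H2-K1 and B2m were lower. H2-K1 measured 775, 813 and 821 CPM after CCl4 against 1453 and 1468 CPM, which is -0.86 ± 0.12 on the log2 scale (adjusted p = 0.000149), 0.55 times the vehicle level. B2m measured 948, 1041 and 995 CPM against 1525 and 1322 CPM (-0.52 ± 0.13, adjusted p = 0.00732). Without the 1st NTC-Veh liver the B2m call was lost (-0.41, adjusted p = 0.0707). The other classical heavy chain, H2-D1, overlapped between the groups at 609 ± 44.7 CPM (SD, n = 3) against 591 ± 6.81 CPM (SD, n = 2), and differed by 0.04 ± 0.11 on the log2 scale (adjusted p = 0.753).

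The other 4 members were not called. Psmb9 measured 25.3 ± 1.77 CPM (SD, n = 3) against 23.3 ± 1.86 CPM (SD, n = 2), Tapbp 162 ± 12.5 against 153 ± 6.12 CPM and Nlrc5 48.5 ± 9.61 against 42.0 ± 6.51 CPM, all with overlap. Psmb10 lay below the vehicle livers in all 3 CCl4 livers, at 36.1, 33.8 and 37.3 CPM against 42.0 and 42.1 CPM, and the difference of -0.24 ± 0.09 in log2 narrowly missed the threshold (adjusted p = 0.0516).

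These directions depend on the scaling. TMM factors were 0.786 to 0.851 in vehicle and 1.08 to 1.24 in CCl4 livers, and scaling by library size alone moved the median of all genes from 0.03 to 0.50. On that scale 7 members were higher and 1, H2-K1, was lower, and B2m was at -0.04 (adjusted p = 0.758) and Psmb10 at 0.24. Relative to the median of all genes, H2-K1, B2m and Psmb10 were below it and Psmb8 and Tap1 above it under both scalings. The change of scaling moves all genes by nearly the same amount, so this was bound to hold and is no second test.

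Immune and hepatocyte markers moved strongly with CCl4. All 8 leukocyte markers were higher in NTC-CCl4 livers, with summed levels of 508 to 608 CPM against 142 to 161 CPM, and 6 of 9 macrophage markers were higher. Of 8 hepatocyte markers 6 were lower and none higher, with sums of 83994 to 96395 CPM against 134920 to 170780 CPM. Their part in the members' values was not tested.

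The fourth comparison gave the response to CCl4 with the Bap1 guide. In sgBap1-CCl4 against sgBap1-Veh livers 7 members were lower and none higher, against 28% and 29% of all genes. All 10 had log2 fold changes below 0, with a median of -0.40 against 0.04 over all genes. In 9 members the CCl4 livers all lay below the vehicle livers and in none above, which held for 34.9% and 37.3% of all genes. This comparison shares its CCl4 livers with the second and its vehicle livers with the first.

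H2-K1 fell the most, from 1902 and 1748 CPM to 715, 716 and 819 CPM (log2 fold change -1.28 ± 0.12, adjusted p = 1.15e-05), 0.411 times the vehicle level. B2m fell from 1783 and 1966 CPM to 973, 963 and 1138 CPM (-0.87 ± 0.13, adjusted p = 0.000287). H2-D1 fell from 780.0 and 739.5 CPM to 588, 646 and 634 CPM (-0.29 ± 0.11, adjusted p = 0.0451), a call that 2 of 10 fits without a liver kept. All 3 chains were without overlap.

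Among the proteasome subunits, Psmb9 fell from 32.6 and 41.4 CPM to 16.6, 16.5 and 19.7 CPM (-1.07 ± 0.12, adjusted p = 5.01e-05). Psmb10 fell from 58.2 and 48.9 CPM to 28.6, 29.8 and 31.5 CPM (-0.84 ± 0.09, adjusted p = 3.43e-05). Psmb8 fell from 51.3 and 49.7 CPM to 39.6, 40.1 and 43.6 CPM (-0.30 ± 0.09, adjusted p = 0.0208). Every CCl4 liver was below both vehicle livers in these 3 genes, and Psmb8 kept its call in 7 of 10 fits without a liver.

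Nlrc5 fell from 56.8 and 46.3 CPM to 37.3, 33.9 and 38.0 CPM (-0.50 ± 0.17, adjusted p = 0.0259). Its call was lost without the 1st sgBap1-Veh liver (-0.35, adjusted p = 0.20), the 1st sgBap1-CCl4 liver (adjusted p = 0.0506) or the 2nd (adjusted p = 0.0685). The loading genes were not called, with log2 fold changes of -0.08 ± 0.11 for Tap1, -0.17 ± 0.09 for Tap2 and -0.22 ± 0.11 for Tapbp (adjusted p = 0.581, 0.125 and 0.0983). Scaled by library size alone, where the median of all genes was 0.52, 4 members were lower (H2-K1, B2m, Psmb9 and Psmb10) and 2 higher (Tap1 and Tap2), and H2-D1, Psmb8 and Tapbp turned to values above 0.

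In the same comparison all 8 leukocyte markers were higher, with sums of 510 to 611 CPM after CCl4 against 214 to 251 CPM. Of 9 macrophage markers 5 were higher and 2 lower (472 to 645 against 277 to 401 CPM), and of 12 T and NK cell markers none was higher and 1 lower. All 8 hepatocyte markers had values below 0 and 3 were called lower, with sums of 74718 to 97143 CPM against 118100 to 125050 CPM. Their part in the members' values was not tested.

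The interaction asked whether the response to CCl4 differed between the guides. It is the log2 fold change of CCl4 in sgBap1 livers minus that in NTC livers. No member and no gene was called, so that 0% of all genes passed in either direction. Unadjusted p-values under 0.05 were reached by 7 members and 1764 genes. DESeq2's Wald test called 5 members lower (Tap1, Tap2, Psmb8, Psmb9 and Psmb10), where it called 106 of 14904 genes higher and 305 lower. All 10 members had values below 0, with a median of -0.54 against -0.02 over all genes. Psmb9 (-1.19 ± 0.18) and Psmb8 (-0.86 ± 0.13) had an adjusted p of 0.0694, the lowest that any gene reached, and ranked 7 and 17 of 17015 genes by p. Nlrc5 had -0.71 ± 0.24 (adjusted p = 0.319), Tap1 -0.62 ± 0.16 (adjusted p = 0.173), Psmb10 -0.60 ± 0.13 (adjusted p = 0.124) and Tap2 -0.47 ± 0.12 (adjusted p = 0.181). In 4 members (Tap1, Psmb8, Psmb9 and Psmb10) every sgBap1 liver was above the controls with vehicle and below them with CCl4, and in none the reverse, which held for 1.38% and 1.3% of all genes. In 2 members (Tap2 and Psmb8) CCl4 livers were all above vehicle with the NTC guide and all below it with the Bap1 guide, and in none the reverse, against 0.529% and 0.488% of all genes. The chains and Tapbp lay between -0.42 and -0.31 (adjusted p = 0.416 to 0.574). When all 27948 genes with at least 1 count in total were tested, Psmb9 (adjusted p = 0.037) and Psmb8 (adjusted p = 0.0474) passed. Of all genes, 11 were then called higher and 23 lower. All 12 T and NK cell markers, 8 leukocyte markers and 9 macrophage markers also had interaction values below 0, with medians of -1.22, -0.86 and -1.22. Above 0 were 0 of 4 B cell, 1 of 5 dendritic cell and 1 of 6 sinusoidal endothelial markers. Hepatocyte markers went the other way, with 7 of 8 above 0 and a median of 0.35. None of these markers was called, and their part in the members' values was not tested.

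The inducible subunits replace constitutive ones in newly built proteasomes, and the ratio of each pair within a liver does not depend on how libraries are scaled. The log2 ratio of Psmb9 to Psmb6 was -2.22 and -2.17 in NTC-Veh livers and -1.75 and -1.53 in sgBap1-Veh livers. With CCl4 it was -1.96, -2.12 and -1.86 in NTC and -2.60, -2.66 and -2.52 in sgBap1 livers. So the sgBap1 livers were above the controls with vehicle and below them with CCl4, without overlap in either case, by 0.56 (exact permutation test, p = 0.333) and -0.61 (exact permutation test, p = 0.1). Both are the smallest p the number of livers allows.

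The ratio of Psmb8 to Psmb5 was -1.06 and -0.83 in NTC-Veh livers and -0.62 and -0.74 in sgBap1-Veh livers. After CCl4 it was -0.31, -0.89 and -0.42 in NTC and -1.25, -1.25 and -1.14 in sgBap1 livers, again on opposite sides without overlap. Psmb10 to Psmb7 had means of -1.44 ± 0.20 and -1.09 ± 0.29 with vehicle (SD, n = 2 each), and of -1.27 ± 0.14 and -1.60 ± 0.03 with CCl4 (SD, n = 3 each). Its nearest vehicle livers were almost level, at -1.298 (NTC-Veh) and -1.294 (sgBap1-Veh). Of 12 tests, 3 ratios over 4 comparisons, none had an exact permutation p below 0.1, and adjusted over the 12 by Benjamini-Hochberg the p-values were 0.2 to 0.4. The constitutive subunits Psmb5, Psmb6 and Psmb7 were not called in either comparison of sgBap1 with NTC (log2 fold changes -0.01 to 0.12).

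**Figure D3:**
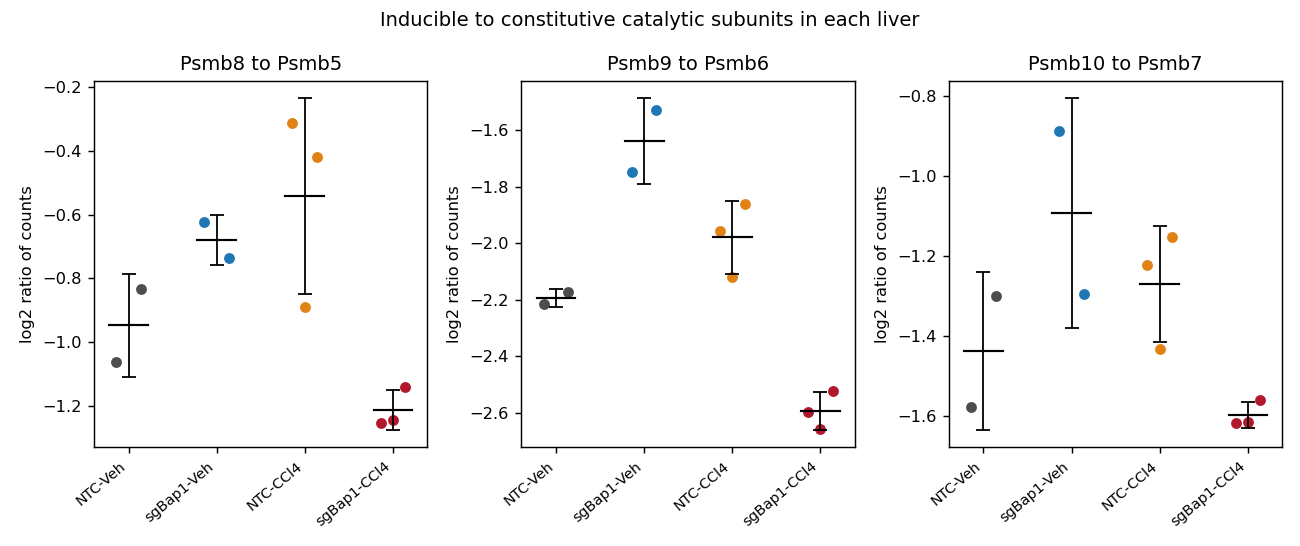
Log2 ratio of counts of each inducible proteasome subunit to the constitutive subunit it replaces (vertical axis) in the 4 groups, with 1 point per liver, the mean as a line and the SD as bars. In all 3 panels the sgBap1-Veh livers lie above the NTC-Veh livers and the sgBap1-CCl4 livers below the NTC-CCl4 livers. In the Psmb10 to Psmb7 panel the nearest vehicle livers are almost level (-1.298 in NTC-Veh, -1.294 in sgBap1-Veh).

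Other genes of the pathway were read from lists fixed for this description. Of 20 other class I heavy chains and class I-like genes, 18 were tested. None was called in either comparison of sgBap1 with NTC, with 16 and 2 of 18 above 0 and medians of 0.24 and -0.25. With CCl4, 2 were higher and 6 lower in NTC livers, and 1 was higher and 12 lower in sgBap1 livers. Cd1d1, which presents lipids to natural killer T cells, fell in both, with log2 fold changes of -1.17 ± 0.13 in NTC (adjusted p = 3.23e-05) and -1.97 ± 0.13 in sgBap1 livers (adjusted p = 1.79e-06). H2-K2 fell from 20.5 ± 5.17 to 5.53 ± 0.813 CPM in NTC and from 35.1 ± 8.07 to 5.96 ± 0.433 CPM in sgBap1 livers (adjusted p = 2.25e-05 and 3.69e-06), and 9.38% of its 50-base stretches are shared with other genes. H2-M3, which binds formylated peptides, rose by 0.96 ± 0.18 in NTC (adjusted p = 0.00115) and by 0.54 ± 0.17 in sgBap1 livers (adjusted p = 0.0213). H2-Q10, a secreted class I chain made in liver, fell by 0.82 ± 0.19 in NTC (adjusted p = 0.0044) and by 0.92 ± 0.19 in sgBap1 livers (adjusted p = 0.00215).

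Of 12 other genes of peptide loading and trimming none was called in either comparison of sgBap1 with NTC, and their medians were 0.00 with vehicle and 0.01 with CCl4. CCl4 raised 7 and lowered 2 in NTC livers and raised 7 and lowered 3 in sgBap1 livers. The chaperone Hspa5 rose by 1.31 ± 0.18 and 1.47 ± 0.18 and the disulfide isomerase Pdia3, part of the loading complex, by 0.71 ± 0.18 and 0.66 ± 0.18 (adjusted p of at most 0.0096). The trimming peptidase Erap1 fell by 0.39 ± 0.09 in NTC (adjusted p = 0.00432) and by 0.61 ± 0.09 in sgBap1 livers (adjusted p = 0.000267). Of 7 tested proteasome activators and constitutive subunits none was called in either comparison of sgBap1 with NTC. In sgBap1 livers CCl4 lowered 4 of them, among them the interferon-inducible activator subunits Psme1 (-0.31 ± 0.10, adjusted p = 0.025) and Psme2 (-0.39 ± 0.09, adjusted p = 0.005), and raised Psme3 (0.40 ± 0.08, adjusted p = 0.00161). In NTC livers 1, Psme3 (0.31 ± 0.08, adjusted p = 0.00783), rose and 2 fell, and Psme1 (0.16 ± 0.10) and Psme2 (0.03 ± 0.09) were not called.

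Of 25 regulators of class I genes, 23 were tested, and Ifng and Ifnb1 were too low to test. Irf8, a factor of myeloid and B cells, was higher in sgBap1-Veh against NTC-Veh livers, at 14.4 and 11.1 CPM against 6.83 and 6.46 CPM (0.95 ± 0.16, adjusted p = 0.0418), and was the 1 regulator called in either comparison of sgBap1 with NTC. This call was lost with the replicate block (adjusted p = 0.0944) and in 8 of 10 fits without a liver, among them those without either NTC-Veh liver. With CCl4, 9 rose and 4 fell in NTC livers and 8 rose and 5 fell in sgBap1 livers. Irf2, which binds interferon response elements, fell by 0.51 ± 0.12 in NTC (adjusted p = 0.00478) and by 1.29 ± 0.12 in sgBap1 livers (adjusted p = 1.25e-05).

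**Figure D4:**
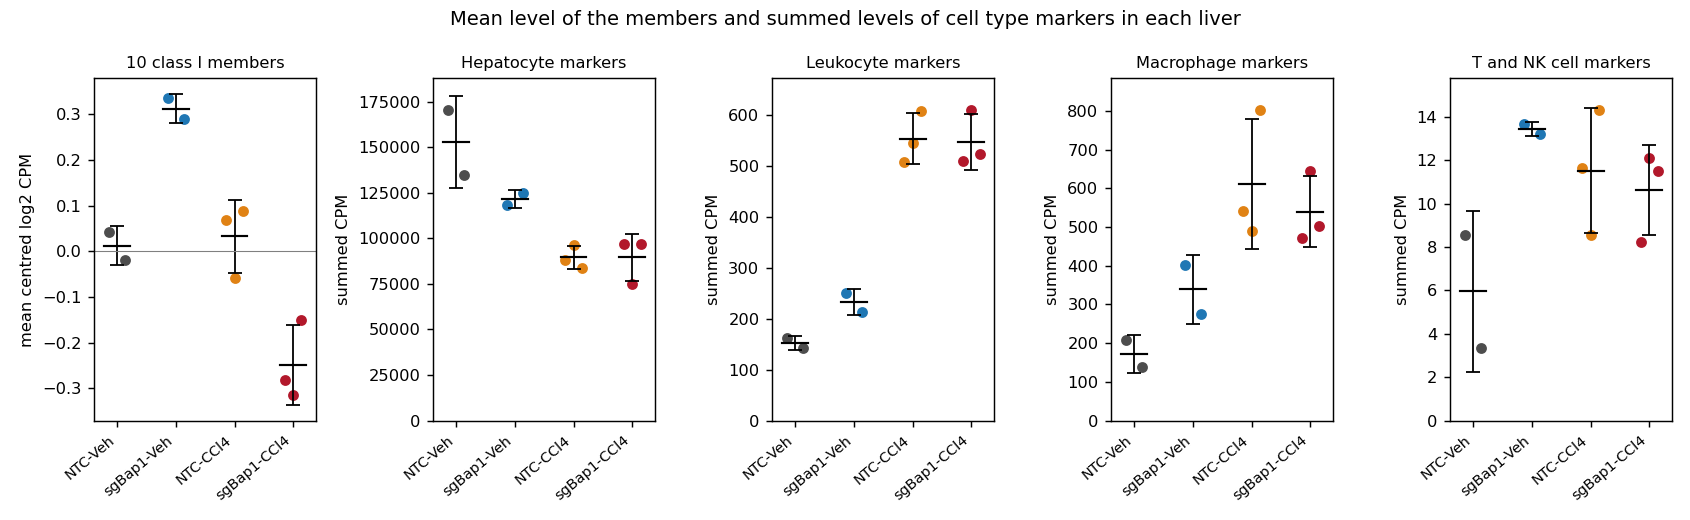
Mean level of the 10 members (log2 CPM centred on each gene's mean, 1st panel) and summed CPM of marker lists for hepatocytes, leukocytes, macrophages and T and NK cells (other panels, from 0) in the 4 groups, with 1 point per liver, the mean as a line and the SD as bars. The members are highest in sgBap1-Veh livers (0.29 and 0.34) and lowest in sgBap1-CCl4 livers (-0.32 to -0.15). Leukocyte (508 to 611 CPM) and macrophage sums (472 to 804 CPM) are highest in both CCl4 groups, and hepatocyte sums in NTC-Veh livers. T and NK cell sums are 13.2 to 13.7 CPM in sgBap1-Veh livers. In NTC-Veh, NTC-CCl4 and sgBap1-CCl4 livers they are 3.33 to 8.58, 8.57 to 14.3 and 8.24 to 12.1 CPM.

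Averaged over the members after centring each on its mean log2 CPM, the level was 0.04 and -0.02 with NTC and 0.34 and 0.29 with sgBap1 in vehicle livers. After CCl4 it was -0.06 to 0.09 with NTC and -0.32 to -0.15 with sgBap1. Over the 45 pairs of members, Pearson's r of log2 CPM across the 10 livers had a median of 0.58 (-0.39 to 0.96, 36 above 0), and of the deviations from group means 0.37 (-0.64 to 0.80, 33 above 0). These points share libraries and groups and are a description. Among 13371 other genes with a mean of at least 1 CPM, those most like the members' average over the 10 livers were Aqp8, Adamdec1, A1bg, P2ry2, Gm10033, Ak4, Slc44a1, Bhlhe40, Nampt and Nudt19 (r = 0.952 to 0.912). With deviations from group means they were Hypk, Sytl4, Gle1, Atxn1, Zfp870, Rarres2, St6gal1, Tmx3, Clu and Clec1b (r = 0.966 to 0.922). The 2 sets of 10 shared no gene.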

How the data were processed

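Stranded mRNA libraries were made from fresh-frozen liver. Reads were aligned with STAR 2.7.6a and quantified with Salmon 1.4.0 on GRCm38, per the labels and the study's methods. The authors deposited estimated counts per gene symbol, made by Salmon and not normalized, of which 9.22% are not whole. Here they were rounded and tested with edgeR 4.0.16 under R 4.3.3 (filterByExpr, TMM, glmQLFit with robust = TRUE and legacy = FALSE) in one model of the 4 groups. Alternatives were DESeq2 1.42.0 and limma-voom (limma 3.58.1), other scalings, filters and subsets, a replicate block, and each liver left out. Log2 ratios used counts plus 0.5 and exact two-sided permutation tests over livers. Log2 CPM used a prior count of 2. The labels name no batches. Between livers of a group the chi-square averaged 14.5 to 85.9 over genes, so they differed by more than resampling of the same library. This cannot tell separate mice from separate preparations of the same liver. That each is its own mouse was taken from the replicate numbers of the labels and the study's methods. The tests were tried on simulated counts. The members and lists were chosen with earlier results of these data known. Named are all 10 members, up to 5 called genes of each list, and the 10 genes most like the members; not every such gene is printed.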

Additional observations from a re-analysis of the deposited data

Results flagged for a closer look

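In 4 members the sgBap1 livers all lay above their controls with vehicle and all below them with CCl4, a pattern of 1.38% of all 17015 genes. The members were chosen with earlier results of these data known, so this share is a description. The difference between both effects was -1.19 on the log2 scale for Psmb9, -0.86 for Psmb8, -0.62 for Tap1 and -0.60 for Psmb10. In Psmb8 and Tap2 (-0.47) the CCl4 livers also all lay above vehicle in NTC and all below vehicle in sgBap1 livers, as did 0.529% of all genes. The interaction term of edgeR's quasi-likelihood test gave these 5 genes an adjusted p of 0.0694 to 0.181, so none of the differences passed the threshold of 0.05. All 5 kept values below 0 in each of the 18 other fits. Where a liver was left out, this largely followed from how the genes were picked, since the remaining livers keep their sides. The rest fitted the same livers again, so the sign is no further support.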

How the results depend on the processing

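Vehicle groups held 2 mice each, and TMM scaling assumes that most genes do not change. The counts of members called moved under some settings. DESeq2's Wald test called 4 members higher in sgBap1-Veh against NTC-Veh livers and 5 lower in the interaction, where the test without a filter beyond 1 count called 2. In sgBap1-CCl4 against NTC-CCl4 livers, 0 members were lower with the replicate block and 0 when only the groups compared were fitted. Samples with the same number did not deviate together (r = -0.149 to 0.102 over 13 pairs), so the numbers were not taken to pair mice. Library size alone gave 7 higher and 1 lower member in NTC-CCl4 against NTC-Veh livers (median 0.574), and 2 higher and 4 lower in sgBap1-CCl4 against sgBap1-Veh livers (median 0.0766). Under it Psmb10 turned to 0.24 in the former, and in the latter H2-D1 turned to 0.19, Tap1 to 0.40, Tap2 to 0.31, Tapbp to 0.25 and Psmb8 to 0.18. The fold change of Tap2 in sgBap1-Veh against NTC-Veh livers turned to -0.0104 without a filter and to -0.0187 with only the groups compared. Over all genes, library size alone called 8500 higher and 2061 lower in NTC-CCl4 against NTC-Veh (4659 and 4519 with TMM) and 8614 and 2388 in sgBap1-CCl4 against sgBap1-Veh livers (4942 and 4758 with TMM). In sgBap1-Veh against NTC-Veh livers 47 genes were higher and 22 lower, against 392 and 156 by DESeq2, 75 and 28 without a filter, 22 and 10 by library size, 18 and 7 by limma-voom, 13 and 6 with only the groups compared and 0 and 1 with the replicate block. In sgBap1-CCl4 against NTC-CCl4 livers these were 34 and 22, against 200 and 280 by DESeq2, 51 and 43 without a filter, 18 and 10 with only the groups compared and 17 and 7 with the block. The interaction called 106 and 305 genes by DESeq2, 11 and 23 without a filter and 2 and 0 by library size.

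With each liver left out in turn, lower members numbered 0 to 2 in sgBap1-CCl4 against NTC-CCl4, 1 to 3 in NTC-CCl4 against NTC-Veh and 4 to 7 in sgBap1-CCl4 against sgBap1-Veh livers. A group cut to 1 liver was assumed to vary like the others. Log2 fold changes near 0 changed sign: Tap2 (-0.0195 to 0.0296) and Tapbp (-0.0737 to 0.14) in sgBap1-Veh against NTC-Veh, H2-D1 (-0.0283 to 0.0701) and B2m (-0.0491 to 0.0856) in sgBap1-CCl4 against NTC-CCl4 livers. The Psmb9 to Psmb6 ratio differed by 0.45 to 0.67 in sgBap1-Veh against NTC-Veh livers, by -1.06 to -0.85 in sgBap1-CCl4 against sgBap1-Veh livers and by -1.28 to -1.06 in the interaction. For Psmb10 to Psmb7 these were 0.14 to 0.55, -0.71 to -0.30 and -0.88 to -0.47. The causes were not tested. Outside these, no member fold change turned sign under any setting run. The settings were applied to Irf8, Ptprc and Csf1r after the data were seen, and their calls in sgBap1-Veh against NTC-Veh livers were also lost by library size alone, by limma-voom and with only the groups compared.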
